A study of Mus musculus with 11 samples.

Results

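The 37 ribosome biogenesis genes described here are components of the nucleolus and of RNA polymerase I (Pol I) transcription, and their signals were compared in the livers of WT, β-catΔEx3 and β-catΔEx3:Myc mice. They were taken from a named list: every probe that is not a control and whose accession maps to one of the 37 RefSeq mouse symbols was a member. The list matched 51 probes, all 37 genes had at least one, and all 51 probes were well above background on all 11 arrays, so no member was lost to the filter on dim probes. In the whole series 22282 items were tested, of which 13963 have a gene symbol. Where a gene had several probes (11 genes with 25 probes), the brightest stood for it.

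The arrays were 1-colour Agilent mouse arrays hybridised with Cy3-labelled total RNA, 1 array for each of 4 WT, 3 β-catΔEx3 and 4 β-catΔEx3:Myc male mice. All the mice were of a mixed background, mostly B6SJL with some 129S6, and were between 22 and 40 days old. An exact age is given for 1 mouse of each group (31 days for WT, 30 days for β-catΔEx3 and 29 days for β-catΔEx3:Myc), all on slide 4, so age could not enter the fit. β-catΔEx3 stands for mutant β-catenin, the Wnt signalling protein, without the part encoded by exon 3, which makes it resistant to degradation, and β-catΔEx3:Myc carries Myc as well. The series offers these mice as models of hepatoblastoma, a liver cancer of childhood, and describes all livers as tumour-bearing. The labels name the tissue only as liver, not as tumour or liver beside it, and give neither the promoter or Cre line that drives the alleles nor the species of the Myc transgene. All 11 hepatocyte markers examined were well above background on all arrays. Slide 1 held 3 WT arrays, slide 2 held 2 arrays of each mutant group, slide 3 held 1 β-catΔEx3:Myc array and slide 4 held 1 array of each group. The upper quartile of the processed signal, to which every value below is scaled, ran from 225.2 to 352.4 intensity units across the arrays.

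Ribosomes are built in the nucleolus. Pol I transcribes a long precursor of the ribosomal RNAs, small nucleolar ribonucleoproteins (snoRNPs) guide its methylation and pseudouridylation, and many assembly factors cut, fold and export the small and the large subunit. Myc is a transcription factor that binds the hexamer CACGTG, the E-box, and ribosome production is among the processes it is best known to drive. The liver makes much protein, and hepatocytes carry prominent nucleoli.

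The promoters were searched for that hexamer, which reads the same on both strands, because the comparison with Myc is the question the 3 groups pose for these genes. RefSeq windows from 250 bases before to 50 bases after the annotated start (build GRCm38.p6) were found for 31 of the 37 genes, and 7 of the 31 (22.6%) held CACGTG in at least 1 window, against 2187 of 27025 genes of the table (8.09%). Among further lists described below, the share by gene was 26.7% for other small subunit factors, 19.6% for other large subunit factors and 13.3% for other Pol I factors. For Pol III genes the share was 26.7%, for ribosomal proteins 10.2%, for the RNA exosome 8.33%, for cell cycle genes 4.55% and for snoRNP assembly 0%. Counted over windows, 7 of 38 windows of the members (18.4%) and 7.15% of all windows held CACGTG. Nop2 carries it 60 bases upstream of the start, Rrn3 carries it at 215 and again at 48 bases upstream, and in Pes1, Nle1, Mybbp1a, Utp20 and Wdr43 it lies within 50 bases after the start. The stretches around it are shown for Nop2 and Pes1, which rose in both mutant groups, and for Rrn3, which was called in neither, with the hexamer in capitals:
Nop2, GRCm38.p6 chr6:125131773-125131878, plus strand: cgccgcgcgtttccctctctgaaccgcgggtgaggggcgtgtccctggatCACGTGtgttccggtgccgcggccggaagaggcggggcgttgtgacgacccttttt
Pes1, GRCm38.p6 chr11:3963927-3964004, plus strand: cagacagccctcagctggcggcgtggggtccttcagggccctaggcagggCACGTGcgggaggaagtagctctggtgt
Rrn3, GRCm38.p6 chr16:13780449-13780539, plus strand: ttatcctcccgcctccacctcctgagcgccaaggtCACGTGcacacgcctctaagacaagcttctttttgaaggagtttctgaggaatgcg
Rrn3, GRCm38.p6 chr16:13780601-13780706, plus strand: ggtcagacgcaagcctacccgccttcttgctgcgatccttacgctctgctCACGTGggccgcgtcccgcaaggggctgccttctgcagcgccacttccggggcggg
Of the 7 genes with it, 4 were called higher in β-catΔEx3 than in WT and 5 in β-catΔEx3:Myc, and of the 24 genes whose windows lack these letters the counts were 12 and 14. Those 24 include Nhp2 and Mrto4. A match is a string of letters in this window and no measure of binding.

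Most of the ribosome biogenesis genes had higher signals in both mutant groups than in WT. In β-catΔEx3, 20 of the 37 were called higher than in WT and 1, Ubtf, lower (limma with Benjamini-Hochberg adjustment over all items, adjusted p under 0.05, n = 3 and 4), where 21.1% of all items were called higher, 15.6% lower and 36.8% either way. In β-catΔEx3:Myc, 23 were called higher and again Ubtf lower (n = 4 and 4), where 25% of all items were called higher, 17.2% lower and 42.3% either way. At an unadjusted p under 0.05 the members numbered 23 and 27, beside 46.6% and 50.2% of all items. The estimate was positive for 36 of the 37 in each comparison, and for 54.8% and 57.7% of all items. As the genes share arrays, their signs are not independent. The median log2 fold change of the members was 0.67 in β-catΔEx3 and 0.64 in β-catΔEx3:Myc, ratios of 1.59 and 1.55, beside 0.091 and 0.13 over all items. All arrays of the mutant group lay above all WT arrays for 20 members in β-catΔEx3 and for 18 in β-catΔEx3:Myc, beside 24.6% of all items in each. The comparisons share their WT arrays, so the members called in both (19, all higher, and Ubtf lower) are not independent of each other. In RNA from tissue, fewer cells of a type and less RNA per cell cannot be told apart.

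Slide and scaling bear on these counts. With slide as a block 4 members were called higher in each group (Nop56, Nhp2 and Mrto4 in both, Ebna1bp2 in β-catΔEx3 and Rrp12 in β-catΔEx3:Myc), where the same fit called 4.03% and 4.16% of all items higher, while the median log2 fold change of the members was 0.92 and 0.93. Within slide 4, which holds 1 array of each group, the median difference of the members from WT was 0.91 log2 units for β-catΔEx3 and 1.09 for β-catΔEx3:Myc, and 36 of 37 were above WT in each. The other 3 WT arrays are alone on slide 1, so with the block every difference from WT rests on WT replicate 4. The block fit and slide 4 therefore share that array as their only WT level. Its median over the members was the lowest of the 11 arrays, -0.14 relative to the WT mean. Scaled to the 75th percentile over probes above background on all arrays, 12 and 16 members were called higher, the median of all items moved to -0.084 and -0.012, and the calls over all items went from 4710 higher and 3485 lower to 3414 and 4662 in β-catΔEx3, and from 5580 and 3839 to 4434 and 4741 in β-catΔEx3:Myc. That scaling moves every item alike. Relative to the median of all items, the members' median was 0.58 and 0.50 as scaled here, and 0.46 to 0.51 and 0.46 to 0.48 with quantile normalization, normexp and the authors' matrix. Under the shift of the scaling over detected probes 2 members changed sign (Utp20 in β-catΔEx3 and Rrn3 in β-catΔEx3:Myc), and under the other scalings both stayed positive.

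**Figure D1:**
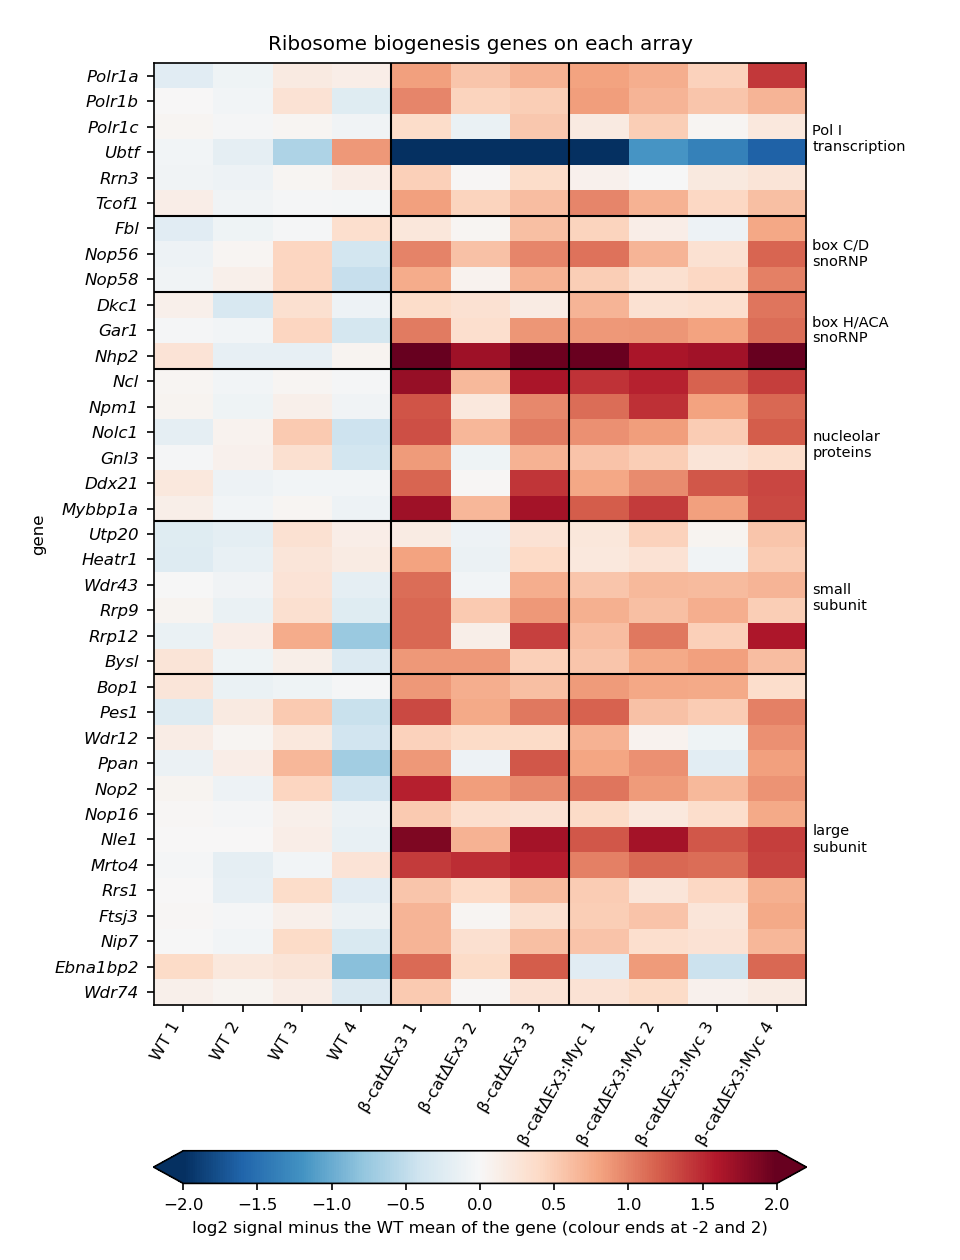
Each row is 1 gene and each column 1 array, grouped as WT, β-catΔEx3 and β-catΔEx3:Myc, and the colour is the log2 signal minus the mean of that gene in WT. The mutant columns are red for most genes and palest for β-catΔEx3 replicate 2 and β-catΔEx3:Myc replicate 3, and Ubtf is blue on all 7 mutant arrays.

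In the first role, 3 Pol I genes rose in both groups and the Ubtf probe fell. Of 6 genes of Pol I transcription, Polr1a, Polr1b and Tcof1 (treacle, a nucleolar cofactor of Pol I) were higher, Ubtf was lower, and Polr1c and Rrn3, the factor that brings Pol I to the promoter, were not called. Polr1a, the largest subunit of Pol I, was at 4.25, 4.70, 5.64 and 5.46 times the upper quartile in WT, at 8.75, 7.29 and 8.09 times in β-catΔEx3 and at 8.72, 8.28, 6.82 and 13.3 times in β-catΔEx3:Myc. All 7 mutant arrays were above the 4 WT arrays, and β-catΔEx3:Myc replicate 4 was the highest. The log2 fold change from WT was 0.69 ± 0.22 (SE, adjusted p = 0.0306) in β-catΔEx3 and 0.85 ± 0.20 (adjusted p = 0.00658) in β-catΔEx3:Myc. With slide as a block it was 0.78 ± 0.31 and 1.08 ± 0.31 (adjusted p = 0.155 and 0.0728). The call in β-catΔEx3 was also lost without WT replicate 1 or 2 or without β-catΔEx3 replicate 1 or 3 (adjusted p = 0.0753, 0.0711, 0.0997 and 0.0716) and under the 4 other scalings (0.0751 to 0.104).

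Polr1b, the second largest subunit, was at 2.13, 2.06, 2.61 and 1.80 times the upper quartile in WT, at 4.18, 2.88 and 2.98 times in β-catΔEx3 and at 3.79, 3.41, 3.12 and 3.43 times in β-catΔEx3:Myc. Here too no mutant array reached down into the WT range. The log2 fold change was 0.63 ± 0.18 (adjusted p = 0.0196) and 0.69 ± 0.17 (adjusted p = 0.00762), or 0.78 ± 0.30 and 0.88 ± 0.30 with the slide block (adjusted p = 0.145 and 0.109). Without β-catΔEx3 replicate 1 the call in β-catΔEx3 was lost (0.46, adjusted p = 0.0864), as it was with scaling over detected probes (0.065). Polr1c, a subunit that Pol I shares with Pol III, was at 0.26 ± 0.18 and 0.23 ± 0.17 and Rrn3 at 0.29 ± 0.15 and 0.13 ± 0.14, with adjusted p between 0.159 and 0.473. Tcof1 rose by 0.63 ± 0.17 and 0.67 ± 0.15 (adjusted p = 0.0136 and 0.00532), while a second Tcof1 probe was at 0.28 ± 0.16 and 0.39 ± 0.15 and was called in neither (adjusted p = 0.205 and 0.0568).

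Ubtf, the upstream binding factor that keeps ribosomal DNA repeats open for Pol I, was at 279, 254, 188 and 525 times the upper quartile in WT, at 60.6, 32.1 and 46.0 times in β-catΔEx3 and at 42.0, 127, 113 and 94.5 times in β-catΔEx3:Myc. Every mutant array was below every WT array, and WT replicate 4 was the highest of all. The brightest Ubtf probe fell by 2.69 ± 0.43 on the log2 scale in β-catΔEx3 (adjusted p = 0.00109, with the slide block -3.41 ± 0.69, adjusted p = 0.03) and by 1.73 ± 0.40 in β-catΔEx3:Myc (adjusted p = 0.00576, with the block -2.58 ± 0.69, adjusted p = 0.0619). A second, dimmer Ubtf probe differed far less and was not called. Tested as an item of its own it gave -0.56 ± 0.23 (adjusted p = 0.0841) and -0.33 ± 0.22 (adjusted p = 0.244), with log2 levels of 0.57, 0.18, 0.68 and 0.84 in WT, 0.020, -0.43 and 0.42 in β-catΔEx3 and -0.021, 0.48, 0.33 and 0.14 in β-catΔEx3:Myc. Its groups overlap, so the size of the Ubtf change rests on 1 probe. On the same arrays the summed level of 6 measured erythroid markers was 128.4 to 376.5 in WT (highest in WT replicate 4), 29.4 to 37.4 in β-catΔEx3 and 55.5 to 83.6 in β-catΔEx3:Myc (of the 6, Hemgn and Alas2 were called lower and Tfrc higher in both groups, and Klf1 higher in β-catΔEx3:Myc), and its part in the Ubtf value was not tested.

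In the box C/D particle, which methylates ribosomal RNA, Nop56 was called higher in both groups, and Fbl and Nop58 in neither. Fbl, fibrillarin, the methyltransferase itself, was at 3.87, 4.26, 4.47 and 5.71 times the upper quartile in WT, at 5.31, 4.65 and 6.91 times in β-catΔEx3 and at 6.20, 4.94, 4.21 and 7.78 times in β-catΔEx3:Myc. The groups overlap, with replicates 1 and 2 of β-catΔEx3 and 2 and 3 of β-catΔEx3:Myc inside the WT range. Fbl differed from WT by 0.29 ± 0.24 in β-catΔEx3 (95% interval -0.23 to 0.82, adjusted p = 0.363) and by 0.31 ± 0.22 in β-catΔEx3:Myc (-0.17 to 0.80, adjusted p = 0.277). Nop56, a scaffold protein of the same particle, was at 14.1, 15.4, 20.3 and 11.6 times the upper quartile in WT, at 29.9, 22.6 and 29.6 times in β-catΔEx3 and at 32.1, 24.1, 18.6 and 33.9 times in β-catΔEx3:Myc. The β-catΔEx3 arrays lay above all WT arrays, and β-catΔEx3:Myc replicate 3 lay below WT replicate 3. Its log2 fold change was 0.85 ± 0.25 (adjusted p = 0.023) and 0.81 ± 0.23 (adjusted p = 0.017), and 1.38 ± 0.33 and 1.51 ± 0.33 with the slide block (adjusted p = 0.0485 and 0.0367). In β-catΔEx3 its call was lost without WT replicate 1 or 4 or β-catΔEx3 replicate 1 or 3 (adjusted p = 0.0518, 0.0552, 0.0785 and 0.0697) and under all 4 other scalings (0.0591 to 0.0895), and in β-catΔEx3:Myc under 3 of them (0.0516 to 0.0731). Nop58, the partner of Nop56 in that scaffold, was at 0.51 ± 0.26 and 0.56 ± 0.24 (adjusted p = 0.15 and 0.0842) and passed in neither.

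In the box H/ACA particle, which turns uridines into pseudouridine, Nhp2 and Gar1 rose in both groups and Dkc1 was called in β-catΔEx3:Myc. Nhp2, a core protein of the particle, was at 25.8, 19.1, 19.0 and 22.3 times the upper quartile in WT, at 88.6, 69.5 and 83.4 times in β-catΔEx3 and at 84.4, 66.2, 68.2 and 87.3 times in β-catΔEx3:Myc. It had the largest rise of the 37 members in both comparisons, and the mutant arrays, from 66.2 upwards, were all above the WT maximum of 25.8. The rise was 3.75-fold in β-catΔEx3 (log2 1.91 ± 0.17, adjusted p = 5.02e-05) and 3.55-fold in β-catΔEx3:Myc (log2 1.83 ± 0.16, adjusted p = 2.84e-05), and with the slide block 1.95 ± 0.31 and 1.92 ± 0.31 (adjusted p = 0.0157 and 0.0166). Dkc1, dyskerin, the pseudouridine synthase, was at 0.298, 0.224, 0.350 and 0.260 times the upper quartile in WT, at 0.359, 0.344 and 0.313 times in β-catΔEx3 and at 0.449, 0.346, 0.351 and 0.587 times in β-catΔEx3:Myc. The WT and mutant ranges overlap, and β-catΔEx3:Myc replicates 1 and 4 were the highest arrays. Dkc1 was not called in β-catΔEx3 (0.28 ± 0.22, adjusted p = 0.347) and was called in β-catΔEx3:Myc (0.60 ± 0.20, adjusted p = 0.0344, with the block 0.93 ± 0.38, adjusted p = 0.163). Its direct difference between the mutant groups was 0.32 ± 0.22 (adjusted p = 0.689). The call was lost without WT replicate 1, 2 or 4 or β-catΔEx3:Myc replicate 1 or 4 (adjusted p = 0.055, 0.101, 0.0745, 0.0759 and 0.0784). Gar1, another core protein, rose by 0.75 ± 0.22 and 0.92 ± 0.20 (adjusted p = 0.0217 and 0.00466). Its β-catΔEx3 arrays overlapped WT, and that call was lost under the 4 other scalings (adjusted p = 0.0687 to 0.0842).

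Of the 6 nucleolar proteins, 5 were called higher in each group, Gnl3 being the exception. This role had the highest median, 0.94 log2 units in β-catΔEx3 and 1.1 in β-catΔEx3:Myc. Ncl, nucleolin, a nucleolar RNA chaperone, was at 20.3, 19.1, 20.5 and 19.6 times the upper quartile in WT, at 66.6, 31.2 and 61.9 times in β-catΔEx3 and at 54.1, 57.6, 45.2 and 51.7 times in β-catΔEx3:Myc. The WT arrays were within a narrow range, and the lowest mutant array, β-catΔEx3 replicate 2, was above them. Nucleolin rose 2.54-fold (log2 1.35 ± 0.24, adjusted p = 0.00181) and 2.62-fold (log2 1.39 ± 0.22, adjusted p = 0.000776). With the slide block the values were 1.48 ± 0.44 and 1.59 ± 0.44 (adjusted p = 0.0834 and 0.0703), and a second Ncl probe gave 1.27 ± 0.22 and 1.39 ± 0.21.

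Npm1, nucleophosmin, a histone and ribosomal protein chaperone of the nucleolus, was at 41.2, 37.4, 42.6 and 37.6 times the upper quartile in WT, at 94.4, 46.0 and 77.0 times in β-catΔEx3 and at 86.0, 109, 68.8 and 87.7 times in β-catΔEx3:Myc. No mutant array was in the WT range, and β-catΔEx3 replicate 2 was only just above it. The log2 fold change was 0.81 ± 0.24 (adjusted p = 0.0233) in β-catΔEx3 and 1.13 ± 0.22 (adjusted p = 0.0025) in β-catΔEx3:Myc, and 0.91 ± 0.43 and 1.35 ± 0.43 with the block (adjusted p = 0.223 and 0.0967). The call in β-catΔEx3 was lost without WT replicate 2 or β-catΔEx3 replicate 1 or 3 (adjusted p = 0.0561, 0.102 and 0.0736) and under the 4 other scalings (0.0527 to 0.115). All 4 Npm1 probes were called in β-catΔEx3:Myc (0.96 to 1.30), and the other 3 were not in β-catΔEx3 (0.55, 0.68 and 0.76, adjusted p = 0.136, 0.0723 and 0.0519). Gnl3, nucleostemin, a nucleolar GTP-binding protein of proliferating cells, was at 3.20, 3.44, 4.07 and 2.52 times the upper quartile in WT, at 5.85, 3.06 and 5.27 times in β-catΔEx3 and at 4.82, 4.57, 3.91 and 4.16 times in β-catΔEx3:Myc. Its mutant arrays ran from inside the WT range to above it, and neither difference was called (0.48 ± 0.24, adjusted p = 0.139, and 0.42 ± 0.22, adjusted p = 0.156). Without β-catΔEx3 replicate 2 it was called in β-catΔEx3 (0.77, adjusted p = 0.0158).

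The other nucleolar proteins rose in both groups: Mybbp1a, a regulator of ribosomal RNA synthesis, by 1.34 ± 0.25 and 1.19 ± 0.23, Nolc1, which carries snoRNPs through the nucleolus, by 1.00 ± 0.25 and 0.87 ± 0.23, and the helicase Ddx21 by 0.87 ± 0.30 and 1.07 ± 0.28 (adjusted p between 0.00237 and 0.0407). On the brightest probe, Ddx21 in β-catΔEx3 is the least certain of these. Its β-catΔEx3 replicate 2, at 1.84 times the upper quartile, lay inside the WT range of 1.69 to 2.08, and the call was lost without any one of 8 arrays (highest adjusted p = 0.155 over all arrays left out in turn), among them β-catΔEx3 replicate 1 and 3 and all 4 WT arrays. A second, dimmer Ddx21 probe was called in both groups by limma (0.79 ± 0.19 and 0.79 ± 0.18, adjusted p = 0.0102 and 0.00557). On that probe all β-catΔEx3 arrays lay above all WT arrays. Nolc1 lost its call in β-catΔEx3 without β-catΔEx3 replicate 1 (adjusted p = 0.0527).

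Of the 6 small subunit factors, Rrp9 and Bysl were called higher in β-catΔEx3, and Wdr43 in addition in β-catΔEx3:Myc. Heatr1, a large scaffold protein of the small subunit processome, was at 10.5, 11.3, 14.9 and 14.1 times the upper quartile in WT, at 21.9, 11.6 and 16.5 times in β-catΔEx3 and at 14.6, 15.3, 12.0 and 18.0 times in β-catΔEx3:Myc. The groups overlap, and the difference from WT was 0.36 ± 0.24 (adjusted p = 0.263) and 0.24 ± 0.22 (adjusted p = 0.41). Rrp12, a factor for export of both subunits, was at 0.124, 0.149, 0.228 and 0.0812 times the upper quartile in WT, at 0.302, 0.147 and 0.350 times in β-catΔEx3 and at 0.209, 0.284, 0.189 and 0.420 times in β-catΔEx3:Myc. The arrays are spread widely within each group, and WT replicate 3 exceeded β-catΔEx3 replicate 2 and β-catΔEx3:Myc replicates 1 and 3. Its estimates, 0.87 ± 0.41 (adjusted p = 0.122) and 0.94 ± 0.38 (adjusted p = 0.0696), were the highest of the 6 and were not called. With the slide block they were 2.12 ± 0.52 (adjusted p = 0.0525) and 2.35 ± 0.52 (adjusted p = 0.0387), without WT replicate 3 or β-catΔEx3 replicate 2 it was called in β-catΔEx3:Myc (adjusted p = 0.0341 and 0.0467), and without β-catΔEx3 replicate 2 it was called in β-catΔEx3 (1.25, adjusted p = 0.0414). Rrp9, a protein of the snoRNP that guides the first cuts of the precursor, rose by 0.85 ± 0.19 and 0.64 ± 0.17, and Bysl, bystin, by 0.73 ± 0.17 and 0.69 ± 0.16 (adjusted p between 0.00573 and 0.0134). Wdr43, a processome protein that binds the precursor early, was at 0.59 ± 0.24 and 0.63 ± 0.22 (adjusted p = 0.0772 and 0.0436), and Utp20, a scaffold of the processome, at 0.12 ± 0.19 and 0.32 ± 0.18 (adjusted p = 0.654 and 0.168).

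Of 13 large subunit factors, 7 were called higher in β-catΔEx3 and 8 in β-catΔEx3:Myc, with all 13 estimates positive in both. Nle1, notchless, an adaptor for the remodelling of the large subunit precursor, was at 0.654, 0.655, 0.715 and 0.590 times the upper quartile in WT, at 2.37, 1.06 and 2.06 times in β-catΔEx3 and at 1.54, 2.07, 1.54 and 1.70 times in β-catΔEx3:Myc. Each mutant array was above each WT array, with β-catΔEx3 replicate 2 the lowest of them. Nle1 rose 2.65-fold (log2 1.41 ± 0.25, adjusted p = 0.00198) and 2.61-fold (log2 1.38 ± 0.23, adjusted p = 0.00111), or by 1.66 ± 0.48 and 1.68 ± 0.48 with the block (adjusted p = 0.0763 and 0.0732). Wdr74, a factor of the large subunit in the nucleolus, was at 2.56, 2.47, 2.64 and 1.95 times the upper quartile in WT, at 3.44, 2.42 and 2.92 times in β-catΔEx3 and at 2.92, 3.12, 2.53 and 2.68 times in β-catΔEx3:Myc. Its ranges overlap, and neither difference was called (0.28 ± 0.17, adjusted p = 0.224, and 0.23 ± 0.16, adjusted p = 0.267).

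Mrto4, a relative of the ribosomal stalk protein that holds its place during assembly, was at 4.69, 4.21, 4.58 and 5.74 times the upper quartile in WT, at 12.6, 13.2 and 14.2 times in β-catΔEx3 and at 9.63, 10.6, 10.3 and 12.2 times in β-catΔEx3:Myc. It was the only member whose mutant groups did not overlap each other, all β-catΔEx3 arrays being the higher. Mrto4 rose by 1.48 ± 0.15 and 1.16 ± 0.14 (adjusted p = 9.5e-05 and 0.000165). With the slide block it rose by 1.35 ± 0.21 and 1.04 ± 0.21 (adjusted p = 0.0145 and 0.0294). Of the 3 proteins that form the complex of Pes1, Bop1 and Wdr12, Pes1 and Bop1 rose in both groups (Pes1 by 1.05 ± 0.27 and 0.82 ± 0.25, Bop1 by 0.74 ± 0.16 and 0.68 ± 0.15) and Wdr12 was called in neither (0.41 ± 0.25 and 0.40 ± 0.23). A second, dimmer Pes1 probe was at 0.44 ± 0.25 and 0.40 ± 0.23 and was not called (adjusted p = 0.2 and 0.193), and the Pes1 call in β-catΔEx3:Myc was lost with scaling over detected probes and quantile normalization (adjusted p = 0.06 and 0.0531). Nop2, a methyltransferase of the large subunit RNA, rose by 1.11 ± 0.23 and 0.87 ± 0.21. Of the other assembly factors Rrs1 rose in both groups, by 0.53 ± 0.18 and 0.47 ± 0.16 (adjusted p = 0.0377 and 0.0418). Nip7 was called in β-catΔEx3 (0.54 ± 0.19, adjusted p = 0.0447) and was at 0.46 ± 0.17 in β-catΔEx3:Myc (adjusted p = 0.0519). Nop16 and the methyltransferase Ftsj3 were called in β-catΔEx3:Myc (0.43 ± 0.14 and 0.51 ± 0.17, adjusted p = 0.0353 and 0.0295) and were at 0.39 ± 0.16 and 0.35 ± 0.18 in β-catΔEx3 (adjusted p = 0.0746 and 0.158). Their differences between the mutant groups, like that of Nip7, were not called.

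Ebna1bp2 was at 26.9, 23.8, 24.7 and 11.6 times the upper quartile in WT, at 45.2, 27.0 and 47.7 times in β-catΔEx3 and at 17.7, 37.2, 15.3 and 45.7 times in β-catΔEx3:Myc. β-catΔEx3 arrays were all above WT, replicate 2 by very little, and β-catΔEx3:Myc replicates 1 and 3 were inside the WT range. Neither difference was called (0.91 ± 0.43 and 0.33 ± 0.40, adjusted p = 0.128 and 0.535). With the slide block, which takes its WT level from WT replicate 4 alone, the one in β-catΔEx3 was 2.17. That array, at 11.6 times the upper quartile, was the lowest in WT. Ppan, also of the large subunit, was at 0.67 ± 0.41 and 0.58 ± 0.38 (adjusted p = 0.221 and 0.245).

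Single arrays decided many of the calls near the threshold. How the share of all items called changed in these fits is not given. In β-catΔEx3 against WT, 10 calls held when each array was left out in turn (Nhp2, Mrto4, Nle1, Ncl, Mybbp1a, Nop2, Rrp9, Bysl and Bop1, higher, and Ubtf, lower), and the other 11 (Polr1a, Polr1b, Tcof1, Nop56, Gar1, Npm1, Nolc1, Ddx21, Pes1, Rrs1 and Nip7) were lost without β-catΔEx3 replicate 1, which left 9 members higher. In β-catΔEx3:Myc against WT, 18 of 24 calls held throughout, and Dkc1, Wdr43, Pes1, Nop16, Rrs1 and Ftsj3 were lost without at least 1 array (highest adjusted p = 0.101, 0.0986, 0.0594, 0.0808, 0.111 and 0.0712). Under the 4 other scalings 13 of the 21 calls in β-catΔEx3 and 17 of the 24 in β-catΔEx3:Myc held throughout. Those lost under at least 1 were Polr1a, Polr1b, Nop56, Gar1, Npm1, Ddx21, Rrs1 and Nip7 in β-catΔEx3 and Nop56, Dkc1, Wdr43, Pes1, Nop16, Rrs1 and Ftsj3 in β-catΔEx3:Myc. Of genes with a second probe, Nip7 in β-catΔEx3 (0.37, adjusted p = 0.126) and Nolc1 in β-catΔEx3:Myc (0.60, adjusted p = 0.0602) were not called on it, and Wdr43 was called on it in both groups (0.86 and 0.96, adjusted p = 0.011 and 0.00346).

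Between the mutant groups no difference in these genes was called. None of the 37 was called between β-catΔEx3:Myc and β-catΔEx3 (limma, n = 4 and 3), where 0.251% of all items were called, and 1 member, Ubtf, had an unadjusted p under 0.05 (0.96 ± 0.43, adjusted p = 0.484), against 10.3% of all items. In no member did all β-catΔEx3:Myc arrays lie above all β-catΔEx3 arrays (3.98% of all items), and the reverse held for Mrto4 alone (-0.32 ± 0.15, 95% interval -0.65 to 0.011; 4.12% of all items). The median difference was -0.034 log2 units (0.016 over all items), with 16 members positive and 21 negative. Leaving out Ubtf, the estimates ran from -0.57 (Ebna1bp2) to 0.32 (Dkc1). The 95% interval held 0 for 36 members and lay within 1 log2 unit either way, a 2-fold change, for 35 (the exceptions were Ubtf and Ebna1bp2), with a median reach of 0.51 to either side of the estimate. Within slide 2, the median difference between the mutant groups was 0.070 (22 of 37 positive), and within slide 4 it was 0.066 (20 of 37).

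**Figure D2:**
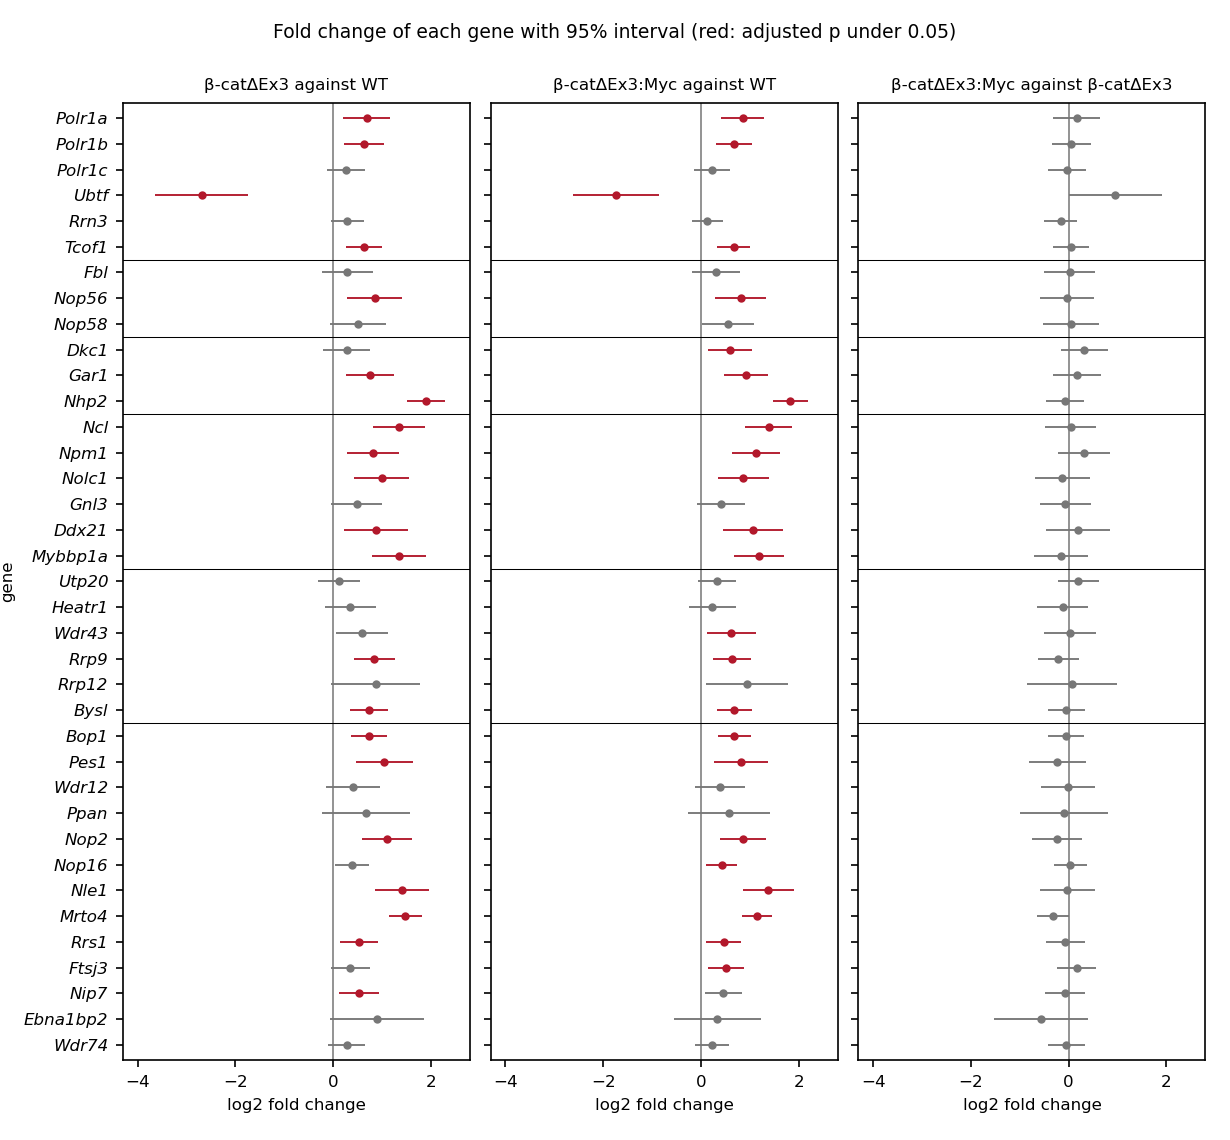
Each point is the log2 fold change of 1 gene with its 95% interval, with β-catΔEx3 relative to WT on the left, β-catΔEx3:Myc relative to WT in the middle and the mutant groups relative to each other on the right, and red marks an adjusted p under 0.05. In the first and second panels 36 of 37 points lie right of 0, and in the third none is red and 36 intervals hold 0.

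Myc itself differed strongly between arrays of 1 group. Myc was at 4.17, 0.786, 1.00 and 0.596 times the upper quartile in WT, at 4.64, 2.21 and 3.59 times in β-catΔEx3 and at 21.7, 7.53, 5.01 and 26.9 times in β-catΔEx3:Myc. WT replicate 1 lay above β-catΔEx3 replicates 2 and 3, and all β-catΔEx3:Myc arrays lay above all others. Myc was 10.3-fold higher in β-catΔEx3:Myc than in WT (log2 3.36 ± 0.68, adjusted p = 0.00279, with the slide block 5.19 ± 1.13, adjusted p = 0.0362). It was not called in β-catΔEx3 against WT (1.49 ± 0.73, adjusted p = 0.134) nor between the mutant groups (1.87 ± 0.73, 95% interval 0.25 to 3.49, adjusted p = 0.396). Without WT replicate 1 the values against WT were 3.97 and 2.10, and the one in β-catΔEx3 passed (adjusted p = 0.0263). Whether the Myc probe reads the transcript of the transgene is not given in the sources used here.

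The level of the ribosome biogenesis genes on an array, taken as the median over the 37 of log2 signal minus the WT mean, followed the order of Myc within each mutant group and not between the groups. It was 0.0042, -0.062, 0.21 and -0.14 on the WT arrays, 0.87, 0.34 and 0.70 on the β-catΔEx3 arrays and 0.69, 0.68, 0.41 and 0.82 on the β-catΔEx3:Myc arrays. All mutant arrays were above all WT arrays, and the mutant groups overlapped: the group mean was 0.64 ± 0.27 (SD, n = 3) in β-catΔEx3 and 0.65 ± 0.17 (SD, n = 4) in β-catΔEx3:Myc, while their mean log2 Myc level was 1.74 ± 0.54 and 3.61 ± 1.17. In order of rising log2 Myc, the β-catΔEx3 arrays (1.15, 1.85 and 2.21) had these genes at 0.34, 0.70 and 0.87, and the β-catΔEx3:Myc arrays (2.33, 2.91, 4.44 and 4.75) at 0.41, 0.68, 0.69 and 0.82. The WT arrays did not keep that order: replicate 1, the highest of them in Myc, was below replicate 3 in these genes. Between the groups, β-catΔEx3 replicate 1 had the highest level of the 11 arrays and ranked 5 in Myc, while β-catΔEx3:Myc replicate 4 ranked 1 in Myc and 2 in these genes.

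Arrays of similar Myc signal from different groups can be set side by side. WT replicate 1, with log2 Myc at 2.06, had its ribosome biogenesis genes at the WT mean (0.0042). β-catΔEx3 replicates 1 and 3 and β-catΔEx3:Myc replicate 3, with log2 Myc at 2.21, 1.85 and 2.33, had them at 0.87, 0.70 and 0.41. Relative to the median of all items on the same array, the level was -0.022 on WT replicate 1. On those 3 mutant arrays it was 0.74, 0.64 and 0.22. WT replicate 1 was on slide 1 and the mutant arrays were on slides 2, 4 and 3, so slide differs as well. This is a comparison of single arrays, with no replicate of that WT level.

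The relation to Myc within groups was tested apart from the difference between groups. In a limma fit of the 3 group means plus a common slope on log2 Myc, no item was called (0 of 22281, smallest adjusted p = 0.447, 5.05% with an unadjusted p under 0.05), and 2 of the 37 members had an unadjusted p under 0.05. These were Nhp2, at 0.16 ± 0.060 log2 units per doubling of Myc (adjusted p = 0.946), and Wdr12, at 0.24 ± 0.080 (adjusted p = 0.946). The slope was positive for 35 of the 37 members, the exceptions being Ubtf (-0.19) and Mrto4 (-0.0053), and for 47.1% of all items, and its median was 0.099 over the members and -0.0083 over all items. Over the 7 mutant arrays alone the median was 0.17 (-0.031 over all items), with 34 positive (42.8% of all items), and 6 members had an unadjusted p under 0.05 (6.02% of all items). With slide as a block it was 0.042, with 29 positive (55.5% of all items), and without WT replicate 1 it was 0.17, with 34 positive (41.7% of all items) and 7 at an unadjusted p under 0.05 (7.29% of all items). The slopes of the 37 members come from the same arrays and are not independent, so the counts of positive slopes are not separate results. Each slope shares the scaling of its array with the Myc value, and no correlation within a group is given, each having only 3 or 4 arrays.

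**Figure D3:**
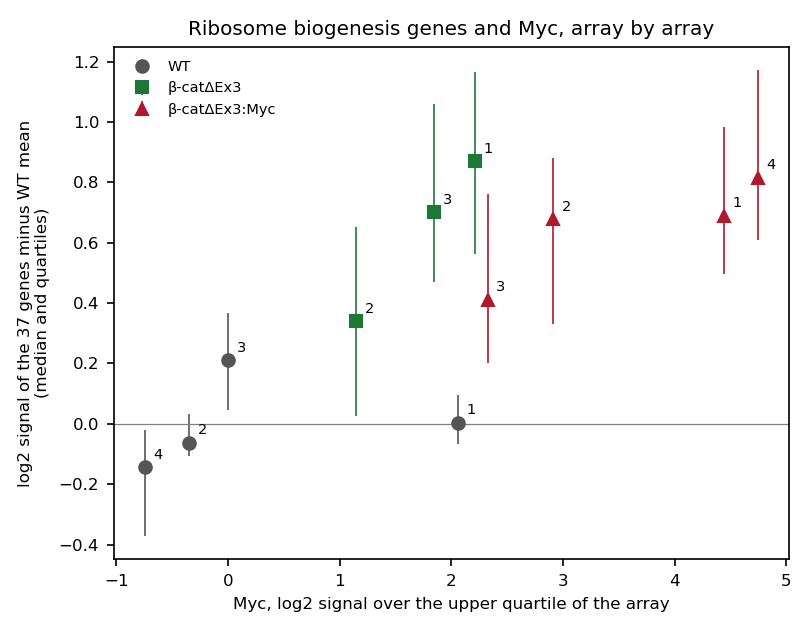
Each point is 1 array (numbers are replicates), with the log2 Myc signal over the array's upper quartile on the x axis and the median and quartiles of the 37 genes' log2 signal minus their WT mean on the y axis. The β-catΔEx3 and β-catΔEx3:Myc points cover the same heights, 0.34 to 0.87 and 0.41 to 0.82, at different Myc, and WT replicate 1 sits at 0.0042 beside β-catΔEx3 points of similar Myc.

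Further genes of the same pathway were taken from 5 lists of other factors. Of 149 measured, 62 were called higher and 4 lower in β-catΔEx3 (median 0.42), and 65 higher and 3 lower in β-catΔEx3:Myc (median 0.44), with 0 called between the mutant groups. Of all items, 21.1% and 25% were called higher, 15.6% and 17.2% lower and 0.251% between the mutant groups, with medians against WT of 0.091 and 0.13. With scaling over detected probes, 15.3% and 19.9% of all items were called higher. By list, in β-catΔEx3 and then β-catΔEx3:Myc, those called higher were 7 and 7 of 15 other Pol I factors, 20 and 19 of 54 other small subunit factors, 20 and 25 of 55 other large subunit factors, 7 and 7 of 12 snoRNP assembly factors and 9 and 8 of 14 genes of the RNA exosome. Scaled over detected probes, the small subunit list gave 11 and 16 and snoRNP assembly 4 and 6, and with the slide block no list gave more than 6. Taf1c, a subunit of the Pol I promoter selectivity factor, rose by 1.60 ± 0.23 and 1.27 ± 0.21 (adjusted p = 0.000581 and 0.000967, with the slide block 0.0204 and 0.0311). Eif6, which keeps the large subunit from joining the small one too early, rose by 1.79 ± 0.20 and 1.51 ± 0.18 (adjusted p = 0.000149 and 0.000166, with the block 0.0162 and 0.0323). Riok2, a kinase of late small subunit maturation, rose by 1.32 ± 0.21 and 1.43 ± 0.20 (adjusted p = 0.00109 and 0.000342, with the block 0.102 and 0.0713).

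Exosome subunits moved both ways. Exosc8 rose by 0.92 ± 0.17 and 1.09 ± 0.16 (adjusted p = 0.00217 and 0.000439, with the slide block 0.027 and 0.0191). Exosc9 fell by 0.84 ± 0.28 and 0.94 ± 0.26 (adjusted p = 0.0385 and 0.0147, with the block 0.0659 and 0.0455), and in β-catΔEx3 its call was lost without any one of 6 arrays, WT replicates 1, 2 and 4 and the 3 β-catΔEx3 arrays (highest adjusted p = 0.11). Both encode core proteins of the complex that trims ribosomal RNA ends. The other genes of these lists called lower were small subunit factors: Utp25 fell by 0.77 ± 0.16 and 0.54 ± 0.15 (adjusted p = 0.0046 and 0.015) and Nol7 by 0.67 ± 0.18 and 0.69 ± 0.16 (adjusted p = 0.0136 and 0.00689), while Rcl1 fell in β-catΔEx3 (by 0.56 ± 0.20, adjusted p = 0.0489). The Rcl1 call was lost on leaving out any array but β-catΔEx3 replicate 1 (adjusted p up to 0.15), and that of Nol7 in β-catΔEx3 without β-catΔEx3 replicate 1 or 3 (adjusted p = 0.0591 and 0.0522). Utp25 and Rcl1 are named after their values were seen.

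The ribosomal proteins are the products that biogenesis factors assemble. Of 79, 53 were called higher in β-catΔEx3 and 72 in β-catΔEx3:Myc (67.1% and 91.1%, beside 21.1% and 25% of all items), with medians of 0.56 and 0.72. These counts moved with the scaling, from 19 to 53 and from 40 to 72 over the 5 scalings, and were 1 and 1 with the slide block (medians 0.49 and 0.70), a share below that of all items in that fit (4.03% and 4.16%). Between the mutant groups none of the 79 was called, while all 79 estimates were positive (median 0.15, beside 52.2% positive among all items and 16 of 37 among the biogenesis genes), and 72 to 79 were positive over the scalings. These genes share arrays and are not independent. Rpl12 rose by 1.19 ± 0.16 and 1.37 ± 0.15 (adjusted p = 0.00047 and 9.4e-05, with the block 0.0398 and 0.027). Of 22 Pol III genes, 7 and 8 were called higher (31.8% and 36.4%, beside 21.1% and 25% of all items) and Bdp1 lower in β-catΔEx3:Myc (-0.60 ± 0.17, adjusted p = 0.016). Of 25 cell cycle genes, 2 were called higher (8%) and 0 lower in each group, beside 15.6% and 17.2% of all items called lower. By limma 2 and 5 had an unadjusted p under 0.05, beside 46.6% and 50.2% of all items. The medians of the cell cycle genes were 0.047 and 0.19, the first of which turned negative under the other scalings (-0.0089 to -0.13). The called genes were the replication genes Pcna (0.71 ± 0.18 and 0.56 ± 0.17, adjusted p = 0.0115 and 0.0205), Mcm2 in β-catΔEx3 (1.44 ± 0.44, adjusted p = 0.0267) and Tyms in β-catΔEx3:Myc (0.54 ± 0.19, adjusted p = 0.0466), the last 2 named after their values were seen. Leaving out single arrays ended the calls of Mcm2 (WT replicate 3 or 4 or β-catΔEx3 replicate 2 or 3, adjusted p up to 0.0974), of Tyms (8 of the 11 arrays, up to 0.114) and of Pcna in β-catΔEx3:Myc (WT replicate 4 or β-catΔEx3:Myc replicate 1, up to 0.0582). Other scalings ended those of Pcna (3 of 4 in β-catΔEx3 and all 4 in β-catΔEx3:Myc, up to 0.122), of Mcm2 (1 of 4, 0.0554) and of Tyms (3 of 4, up to 0.152).

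**Figure D4:**
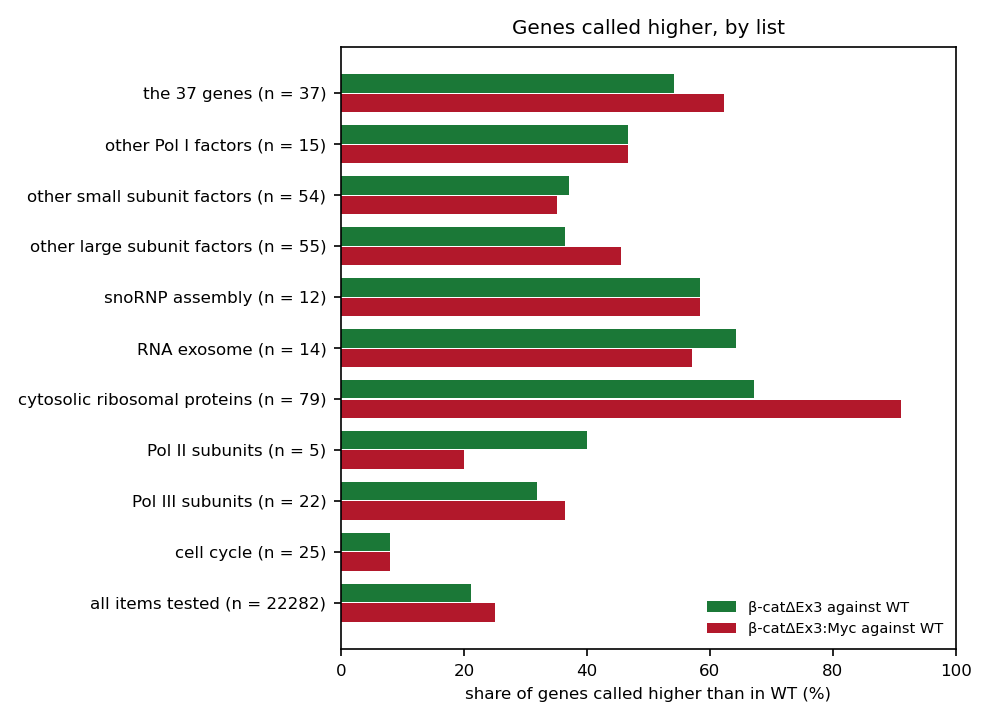
Bars give the share of each list called higher than in WT (limma, adjusted p under 0.05), with β-catΔEx3 in green and β-catΔEx3:Myc in red, and n is the number of measured genes. The 37 genes reach 54.1% and 62.2%, the ribosomal proteins 67.1% and 91.1%, the cell cycle list 8% in both, and all items 21.1% and 25%.

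Markers of other liver cell types moved with the groups. Over all items, 15.6% and 17.2% were called lower and 21.1% and 25% higher than WT in β-catΔEx3 and β-catΔEx3:Myc. Of 9 measured macrophage markers 8 were lower in β-catΔEx3 and 9 in β-catΔEx3:Myc, and their summed level, in multiples of the upper quartile, was 165.2 to 245.3 in WT, 15.2 to 38.7 in β-catΔEx3 and 13.5 to 41.7 in β-catΔEx3:Myc. Endothelial markers were lower for 6 and 7 of 9 (sums 122.9 to 145.1, 60.19 to 79.99 and 31.7 to 50.1), stellate cell markers for 3 and 6 of 9 (78.6 to 140.4, 63.7 to 71.3 and 26.5 to 50.7) and lymphocyte markers for 5 and 5 of 7 (44.5 to 60.6, 16.7 to 36.7 and 20.6 to 44.1). Hepatocyte markers were lower for 6 of 11 in β-catΔEx3, and higher for 2 and lower for 4 in β-catΔEx3:Myc (sums 6389 to 7777, 3776 to 5511 and 3899 to 6403). Of 9 neutrophil markers, 8 were negative in β-catΔEx3 (1 called, Elane, higher; median -1.45) and all 9 positive in β-catΔEx3:Myc (2 called, Ngp and Mpo, higher; median 1.83), and between the mutant groups 8 had an unadjusted p under 0.05 and 0 were called by limma (median 3.37), while their sums were 226.9 to 240.3, 208.1 to 238.5 and 243.3 to 293.6. Of 5 biliary markers Krt19 was higher in β-catΔEx3 and Spp1 lower in β-catΔEx3:Myc. The part of these cell types in the values of the ribosome biogenesis genes was not tested.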

How the data were processed

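The deposited scanner files hold intensity values per spot, background-subtracted by Agilent Feature Extraction 10.7.1.1, per the file headers. The authors' deposited value matrix holds log2 values of the same arrays, and its columns share 1 median, minimum and maximum, as quantile normalization leaves them; the method is not given in the sources used here.

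From the processed signal, control and outlier spots were left out, spots of 1 probe were averaged, and each log2 value was set relative to the 75th percentile of its array. A probe entered the tests if 3 or more arrays had it well above background, and was named through its RefSeq accession. The 3 group means were fitted over all items with limma 3.58.1 in R 4.3.3 (lmFit, eBayes, Benjamini-Hochberg, threshold 0.05), and the slope on Myc with group means in the model. The code was tested on simulated data. Alternatives were other scalings (detected probes, quantile, normexp with offset 50 on median signals, since the files hold no mean signals, and the authors' matrix), slide as a block, filters, probe averages and leaving out each array.

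The members and all gene lists were chosen with earlier results of these data known. Every array's value is given for Myc, for Ncl, Npm1, Fbl and Polr1b, for the members with the largest and smallest change in each role and for those called lower. Those of Mrto4 and Ebna1bp2 are given outside this rule, with their values known. In each further list the genes with the largest called change each way and the brightest gene could be named. Replicate numbers follow deposition order. The p-values of the main fit measure the spread between arrays of a group, each from 1 mouse, and that spread mixes mouse and slide. As 3 of the 4 WT arrays are alone on slide 1, slide also enters the differences from WT. The number of arrays limits the precision.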

Additional observations from a re-analysis of the deposited data

Results flagged for a closer look

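Of 76 sets of 4 arrays examined (the WT and the β-catΔEx3:Myc values of the members and of Myc), 3 held 1 array far from the other 3, where chance gives about 1 in 20. The log2 level of Ddx21 was 1.06 in WT replicate 1, against 0.76 to 0.80 in the other WT arrays. Ebna1bp2 was at 3.53 in WT replicate 4, against 4.58 to 4.75 in the others. Ppan was at 3.41 in β-catΔEx3:Myc replicate 3, against 4.40 to 4.53 in the others of its group.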

How the results depend on the processing

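Members called higher in β-catΔEx3 than in WT numbered 12 with scaling over detected probes, 13 with quantile normalization and 13 with the authors' matrix. The same fits called 15.3%, 18.4% and 19.2% of all items higher. With slide as a fixed block the count was 4 (4.03% of all items). It ran from 9 (without β-catΔEx3 replicate 1) to 24 (without β-catΔEx3 replicate 2) when 1 array was left out. In β-catΔEx3:Myc the count was 4 with slide as a fixed block (4.16% of all items) and 17 to 25 with 1 array left out. Shares of all items are not given for the fits with 1 array left out. The Myc difference between β-catΔEx3 and WT ran from 1.16 to 2.10 with 1 array left out, and passed the threshold without WT replicate 1 (adjusted p = 0.0263). For these the cause was not tested. Of 924 alternative values of 42 named results, 869 stayed on the same side of the threshold, 50 lost the call and 5 gained it. The 869 include every value between the mutant groups, none of which was called in any fit. Only values called in the main fit could lose a call, so the 869 do not measure how well calls held. Reversals were counted only where a value was called in either fit, and 0 were found. Values called in neither could change sign, as Ncl did between the mutant groups (-0.31 to 0.24). With the 2 arrays farthest from the median of Myc left out, an alternative chosen after seeing the data, the median slope was 0.070 (34 of 37 positive). No paired analysis was possible because the labels carry no replicate numbers shared between groups. No member was lost to the filter on dim probes, all probes being above background on all arrays. For Rrp12, the dimmest member, the estimates against WT were 0.43 and 0.45 with normexp, beside 0.87 and 0.94 in the main fit.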
